A study of Mus musculus with 6 samples.

Results

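Erg and 7 other transcription factor genes of the ETS family were described in bulk RNA-seq of mouse tail tendon. The 8 genes, *Erg*, *Fli1*, *Ets1*, *Ets2*, *Elk3*, *Etv1*, *Etv4* and *Etv5*, were taken by symbol from a table of 44788 gene symbols. They were chosen because *Erg* was higher in *Mkx*-/- tendons than in wild-type (WT) tendons by more than endothelial marker genes were. Since the levels in the WT and *Mkx*-/- libraries chose the 8 genes, their differences between genotypes are given as descriptions without a test. The study compared the RNA of tail tendons from 3 WT and 3 *Mkx*-/- samples, all from C57BL/6 mice. The sample labels give an age of 3 weeks, and the text of the paper gives a different age. The labels state the genotype only and describe neither the *Mkx* allele nor whether tendons of several animals were pooled. Mkx, or Mohawk, is a homeobox transcription factor of tendon cells, and the study asked how its loss leads to bone formation in tendon.

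ETS factors share a winged helix-turn-helix domain that binds DNA around a GGAA core, and many act downstream of growth factor signalling through the kinase ERK. Erg and Fli1 are close relatives that maintain the endothelial lining of blood vessels, where both are usually expressed together. Erg is also expressed in cartilage and at forming joints, and Fli1 and Ets1 are expressed in blood cells. Ets2 and Ets1 are activators that ERK phosphorylates, Elk3 is a ternary complex factor that works with serum response factor, and Etv1, Etv4 and Etv5 form the PEA3 group, whose genes are induced by fibroblast growth factor signalling.

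The libraries held 10835070 to 14160301 counts, and 14550 genes had enough counts to be tested. Levels are given as normalized CPM, the counts of a gene relative to the size of its library as scaled by edgeR's TMM method, and 1 count was worth 0.0703 to 0.0981 CPM. Differences between genotypes are given as log2 fold changes (log2FC), *Mkx*-/- against WT. Calls of upregulated or downregulated genes required an adjusted p under 0.05 in edgeR's quasi-likelihood test together with a log2FC outside the range from -1 to 1. The labels do not say whether the 3 samples of a genotype came from separate animals, so the p-values measure the spread between these samples. The counts on *Mkx* itself were 1825, 1381 and 1685 in WT and 620, 589 and 491 in *Mkx*-/- libraries, with a log2FC of -1.60 (standard error 0.16, edgeR adjusted p = 0.00183). Reads on *Mkx* thus remained in every *Mkx*-/- library. The tendon marker *Tnmd* was abundant in all 6 libraries, at 912 to 1170 CPM in WT and 886 to 1290 CPM in *Mkx*-/- tendons. *Mkx*-/- replicate 3 stood apart by its smooth muscle RNA, with *Myh11* at 202 CPM and at most 2.75 CPM in each of the other libraries. WT replicate 3 differed from the other libraries in sex, with 301 counts on the Y-linked gene *Ddx3y* and 1 on *Xist*, where the other 5 libraries had 0 on *Ddx3y* and at least 1289 on *Xist*. Without WT replicate 3, 103 genes were called upregulated and 112 downregulated, against 275 and 193 with it, and the log2FC of *Erg* was 2.23.

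*Erg* was the member that differed most between the genotypes. It lies at 95580776 to 95808200 of chromosome 16 (minus strand) in the mouse build mm9. The sequences before the annotated starts of *Erg* show how few letters it takes to match an ETS core. RefSeq's promoter table (GRCm38.p6) held 3 start sites of *Erg*, and the 250 bases before each were matched base for base to mm9. They are printed 5' to 3' on the strand of the gene, and capitals mark GGAA on this strand or on the opposite strand (TTCC).
Erg start 1, chr16:95808201-95808450: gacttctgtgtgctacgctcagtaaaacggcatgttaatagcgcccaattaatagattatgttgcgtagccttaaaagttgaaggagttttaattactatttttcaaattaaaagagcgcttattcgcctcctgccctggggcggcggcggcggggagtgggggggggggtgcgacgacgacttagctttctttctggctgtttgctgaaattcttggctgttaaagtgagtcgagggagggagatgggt
Erg start 2, chr16:95751973-95752222: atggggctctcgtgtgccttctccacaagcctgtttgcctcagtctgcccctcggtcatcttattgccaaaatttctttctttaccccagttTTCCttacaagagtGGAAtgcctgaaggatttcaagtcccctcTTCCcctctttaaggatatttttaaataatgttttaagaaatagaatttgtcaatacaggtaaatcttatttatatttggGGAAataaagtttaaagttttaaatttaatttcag
Erg start 3, chr16:95680956-95681205: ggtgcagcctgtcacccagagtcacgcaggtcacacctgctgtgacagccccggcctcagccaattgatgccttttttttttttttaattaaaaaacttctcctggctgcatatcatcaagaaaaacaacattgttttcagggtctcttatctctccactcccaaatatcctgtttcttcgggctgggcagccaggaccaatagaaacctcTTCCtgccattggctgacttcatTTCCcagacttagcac
The window before the first start held 0 copies of GGAA, the second held 4 and the last held 2, counted on both strands. Of 32851 such windows over all genes in the table, 93.4% held at least 1 copy, with a median of 3, and 33.4% held at least 4. A longer ETS motif, CCGGAAGT, was found on either strand in 2.88% of all windows and in 0 of the 9 windows of the 5 members with an entry, which were *Erg*, *Ets2*, *Elk3*, *Etv1* and *Etv5*. *Fli1*, *Ets1* and *Etv4* had no entry. A match of these letters is a description and does not show binding. The counts are per gene, so they do not tell which start of *Erg* was used.

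Counts on *Erg* were 86, 86 and 121 in WT, against 482, 528 and 339 in *Mkx*-/- libraries. As a normalized level this was 6.78, 8.44 and 9.69 CPM in WT and 44.1, 37.1 and 26.9 CPM in *Mkx*-/- tendons. All *Mkx*-/- libraries lay above all WT libraries, and *Mkx*-/- replicate 3 was the lowest of its group. The WT mean was 8.30 ± 1.46 CPM (SD, n = 3), and the *Mkx*-/- mean was 36.0 ± 8.69 CPM (SD, n = 3). This was 4.34-fold higher, a log2FC of 2.12 with a standard error of 0.22. Over 13 other ways of processing the counts, the log2FC of *Erg* lay between 1.93 and 2.37. Among the 14550 tested genes, 166 had a larger log2FC than *Erg*. In whole tissue, fewer cells of a type and less RNA per cell cannot be told apart, and the same holds for more of either.

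**Figure D1:**
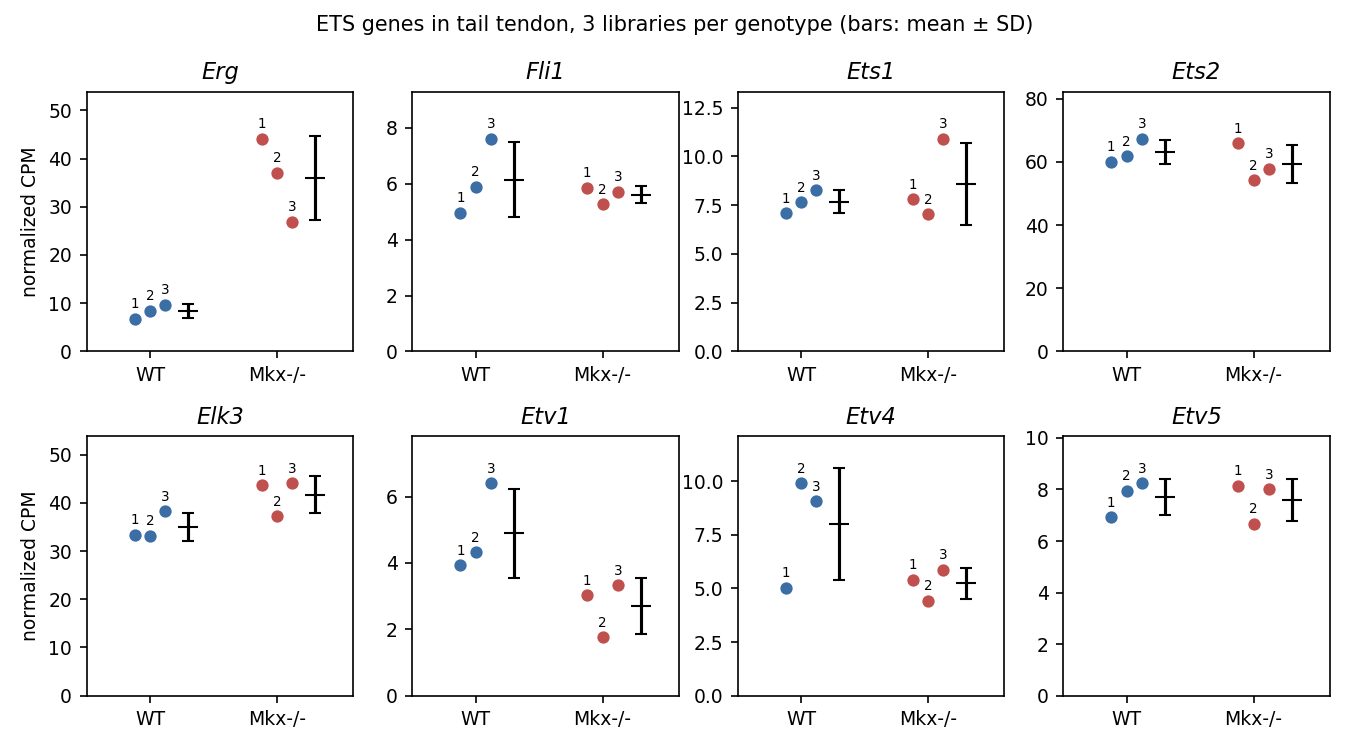
Normalized level (CPM) of the 8 ETS genes in each library, with 3 WT and 3 Mkx-/- libraries per gene and the group mean as a line. Erg lay at 6.78 to 9.69 CPM in WT and 26.9 to 44.1 CPM in Mkx-/- tendons, and Etv1 was the other gene whose groups did not overlap.

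*Fli1*, the nearest relative of *Erg*, had overlapping levels in the genotypes. It lies at 32229793 to 32348974 of chromosome 9 (minus strand). Its level was 4.96, 5.89 and 7.61 CPM in WT and 5.86, 5.27 and 5.71 CPM in *Mkx*-/- tendons. The *Mkx*-/- libraries fell inside the WT range, and the log2FC was -0.13 (standard error 0.21). For each count on *Fli1* there were 1.37, 1.43 and 1.27 counts on *Erg* in WT, and 7.53, 7.04 and 4.71 in the *Mkx*-/- libraries. This ratio is taken within a library and so is free of the scaling between libraries. *Ets1* lies 94.8 kb from *Fli1* on the plus strand, from 32443806 to 32565405. It had 7.09, 7.66 and 8.25 CPM in WT and 7.79, 7.03 and 10.9 CPM in *Mkx*-/- tendons, with a log2FC of 0.16 (standard error 0.20). Its groups overlapped, and its highest level was in *Mkx*-/- replicate 3.

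*Ets2* was the member with the most counts and the nearest to *Erg* on the chromosome. It lies at 95923682 to 95942658 of chromosome 16 (plus strand), 115 kb beyond the start of *Erg*. Its level was 60.1, 61.7 and 67.3 CPM in WT and 65.9, 54.2 and 57.8 CPM in *Mkx*-/- tendons. These groups overlapped, with a log2FC of -0.09 (standard error 0.12). *Erg* had 0.113 to 0.144 counts for each count on *Ets2* in WT and 0.465 to 0.684 in *Mkx*-/- libraries. *Elk3*, at 92710159 to 92773880 of chromosome 10 (minus strand), had 33.4, 33.2 and 38.3 CPM in WT and 43.7, 37.2 and 44.1 CPM in *Mkx*-/- tendons. Its groups overlapped through 1 library of each genotype, and its log2FC was 0.25 (standard error 0.13). The exons of *Elk3* overlap those of *Cdk17* on the opposite strand, and how strand was counted is not given in the sources used here, so its counts may hold reads of *Cdk17*.

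The genes of the PEA3 group had lower or overlapping levels in *Mkx*-/- tendons. *Etv1*, at 39505967 to 39594802 of chromosome 12 (plus strand), had the fewest counts of the 8 genes, with 50, 44 and 80 counts in WT and 33, 25 and 42 in *Mkx*-/- libraries. Its normalized level was 3.94, 4.32 and 6.41 CPM in WT and 3.02, 1.76 and 3.33 CPM in *Mkx*-/- tendons. The groups did not overlap, though the highest *Mkx*-/- library and the lowest WT library were close, and the log2FC was -0.86 (standard error 0.31). *Etv4*, at 101631056 to 101646685 of chromosome 11 (minus strand), had 5.04, 9.91 and 9.05 CPM in WT and 5.40, 4.43 and 5.87 CPM in *Mkx*-/- tendons. WT replicate 1 lay among the *Mkx*-/- libraries, and the log2FC was -0.61 (standard error 0.27). *Etv5*, at 22381382 to 22439792 of chromosome 16 (minus strand), had 6.93, 7.95 and 8.25 CPM in WT and 8.15, 6.67 and 8.01 CPM in *Mkx*-/- tendons. The *Etv5* groups overlapped almost fully, with a log2FC of -0.02 (standard error 0.17).

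By the call used for all genes, *Erg* was called upregulated and 0 of the 8 members were called downregulated, where 1.89% of all tested genes were called upregulated, 1.33% downregulated and 3.22% in either direction. *Erg* and *Etv1* had groups that did not overlap, where 28.2% of all tested genes had none. The members were chosen on this contrast, so nothing is read from these counts. The median log2FC of the 8 genes was -0.054, and that of all tested genes was -0.004. Scaling by library size only moved the median of all tested genes to 0.25. With that shift, *Fli1*, *Ets2* and *Etv5* changed sign, to 0.13, 0.16 and 0.24 on the log2 scale. They lay below the median of all genes in both scalings.

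Levels of different genes were compared as normalized counts per length of exon (RPKM), for the 17 tested ETS genes with a single record in the annotation. In WT tendons *Ets2* came first, with 13.4 ± 0.799 RPKM (SD, n = 3), and *Elk3* came 4th with 7.68 ± 0.635 RPKM (SD, n = 3). The other members followed from the 9th place on. *Etv4* had 2.58 ± 0.838 RPKM, *Erg* had 2.39 ± 0.42 RPKM, *Fli1* had 1.98 ± 0.432 RPKM and *Etv5* had 1.88 ± 0.168 RPKM (each SD, n = 3). *Erg* overlapped its neighbours *Etv4* and *Elk1* in range, and *Fli1* overlapped *Etv3* and *Etv5*. *Ets1* (1.19 ± 0.0904 RPKM) and *Etv1* (0.83 ± 0.226 RPKM) came 15th and 16th, each with a range apart from its neighbours.

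In *Mkx*-/- tendons *Erg* moved to the 3rd place of the 17 genes, with 10.4 ± 2.5 RPKM (SD, n = 3). It stood after *Ets2* (12.6 ± 1.27 RPKM) and *Elf2* (11.8 ± 0.942 RPKM) and before *Elk3* (9.16 ± 0.844 RPKM), and its range overlapped those of *Ets2*, *Elf2*, *Elk3* and *Erf*. *Erg* made up 2.55%, 3.24% and 3.55% of the summed RPKM of the ETS genes in WT, and 14.0%, 13.0% and 9.68% in the *Mkx*-/- libraries. It ranked 11th, 10th and 10th in WT, and 2nd, 3rd and 5th in the *Mkx*-/- libraries. *Etv1* was last in *Mkx*-/- tendons, with 0.459 ± 0.142 RPKM (SD, n = 3), within the range of *Elk4*.

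**Figure D2:**
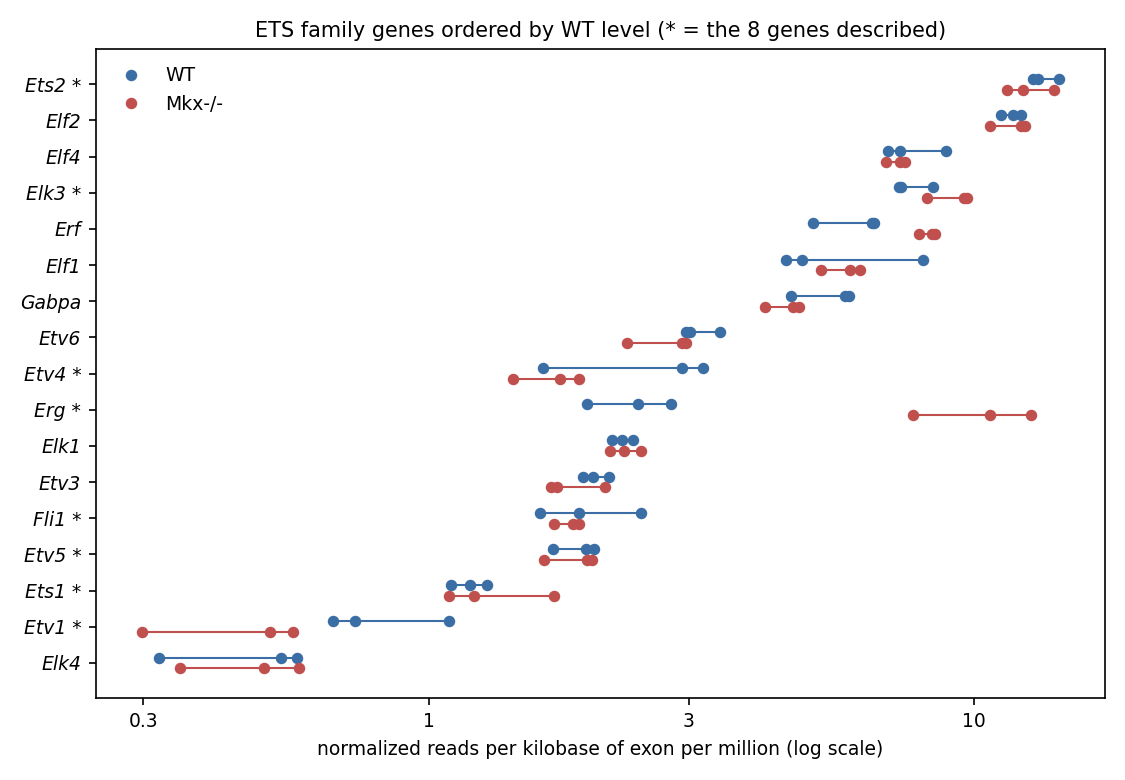
Level in RPKM (log axis) of the 17 ETS genes with a single record in mm9, in the order of the WT mean. Dots are single libraries (n = 3 per genotype), and lines join the lowest and the highest library. By group mean, Erg stands 10th in WT at 2.39 RPKM and 3rd in Mkx-/- tendons at 10.4 RPKM, while Ets2 stands first in both.

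No gene of the rest of the ETS family passed the call. Of 18 other family genes listed, 10 were tested, and 0 were called in either direction by edgeR's quasi-likelihood test or by DESeq2. At an unadjusted p under 0.05 in edgeR, *Erf* was higher and *Spi1* was lower, where 12.5% of all tested genes were higher and 10.1% were lower. *Erf*, a repressor that ERK removes from the nucleus, had 23.6, 23.5 and 18.3 CPM in WT and 30.6, 30.1 and 28.6 CPM in *Mkx*-/- tendons. Its groups did not overlap, but its log2FC of 0.45 (standard error 0.14) missed the threshold (edgeR adjusted p = 0.0951). *Spi1*, which drives the differentiation of macrophages, had 8.27, 7.95 and 6.49 CPM in WT and 4.21, 5.90 and 5.55 CPM in *Mkx*-/- tendons. Its log2FC was -0.53 (standard error 0.20, edgeR adjusted p = 0.163). The 8 others, *Gabpa*, *Elk1*, *Elk4*, *Etv3*, *Etv6*, *Elf1*, *Elf2* and *Elf4*, had log2FC values from -0.27 to 0.02, with an adjusted p of at least 0.302. *Etv2* and *Fev* had 0 counts in every library. The median log2FC of the 10 tested genes was -0.052.

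Since *Erg* is best known from endothelial cells, a list of 26 endothelial markers was set beside it. Of these, 22 were tested, and 20 were higher and 2 lower in *Mkx*-/- tendons, 13 of them higher at an unadjusted p under 0.05. Of all 14550 tested genes, 7208 were higher, and 12.5% were higher at an unadjusted p under 0.05. Only *Ecscr*, which encodes an endothelial surface protein, was called upregulated in edgeR, and 4 genes were in DESeq2. The shares called upregulated over all genes were 1.89% in edgeR and 2.37% in DESeq2. *Ecscr* rose from 9.23 ± 0.287 CPM to 24.9 ± 3.86 CPM (SD, n = 3 each), a log2FC of 1.43 (standard error 0.15, edgeR adjusted p = 0.00227). The median log2FC of the list was 0.81, and 0 of the 22 genes had a larger log2FC than *Erg*, as the choice of *Erg* fixed. *Pecam1*, an adhesion molecule of endothelial junctions, had 5.91, 7.26 and 5.45 CPM in WT and 8.88, 9.27 and 27.5 CPM in *Mkx*-/- tendons (log2FC 1.30, standard error 0.43, edgeR adjusted p = 0.12). *Cdh5*, the cadherin of the same junctions, had 4.88, 8.44 and 6.81 CPM in WT and 8.88, 10.5 and 22.4 CPM in *Mkx*-/- tendons (log2FC 1.06, standard error 0.36, edgeR adjusted p = 0.13). In both genes the level stood out in *Mkx*-/- replicate 3. Among the most abundant markers, *Eng*, *Vwf*, *Fzd4* and *Tek* did not pass the test. *Eng*, *Vwf* and *Fzd4* were higher in *Mkx*-/- tendons, with log2FC values of 0.44, 1.02 and 0.44 (adjusted p of 0.126, 0.122 and 0.147 in edgeR). *Tek* had 25.9 ± 4.38 and 26.2 ± 1.42 CPM (SD, n = 3 each, edgeR adjusted p = 0.96).

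*Erg* and most endothelial markers were ordered differently among the *Mkx*-/- libraries, with 16 of the 22 at their *Mkx*-/- maximum in replicate 3. *Eng*, one of the most abundant markers, had the order of *Erg*, at 36.5, 35.5 and 30.8 CPM in replicates 1, 2 and 3. The markers were highest of all 6 libraries in *Mkx*-/- replicate 3 for 14 of the 22 genes, and without this library the median of the list was 0.51 on the log2 scale. *Erg* was lowest of its group in that library. The log2 level of *Erg* minus the mean log2 level of the list was 0.79, 0.93 and 1.15 in WT and 3.06, 2.64 and 1.52 in *Mkx*-/- libraries. The mean of this difference was 0.96 in WT and 2.41 in *Mkx*-/- tendons, a difference of 1.45 that lay between 1.12 and 1.89 over 9 alternatives. *Erg* was chosen because it was higher by more than these markers, so the direction restates that choice and nothing is read from it. For the other members the same difference moved down, from -0.38 for *Elk3* to -1.47 for *Etv1*, and it fell by 0.75 for *Fli1*. In counts, *Erg* had 1.15, 1.16 and 1.78 counts for each count on *Pecam1* in WT, and 4.97, 4.0 and 0.977 in *Mkx*-/- libraries. This ratio was higher in *Mkx*-/- replicates 1 and 2 than in any WT library, and lower than in any WT library in *Mkx*-/- replicate 3. Against *Cdh5*, the ratio was 1.39, 1.0 and 1.42 in WT and 4.97, 3.54 and 1.20 in *Mkx*-/- libraries, with replicate 3 inside the WT range.

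**Figure D3:**
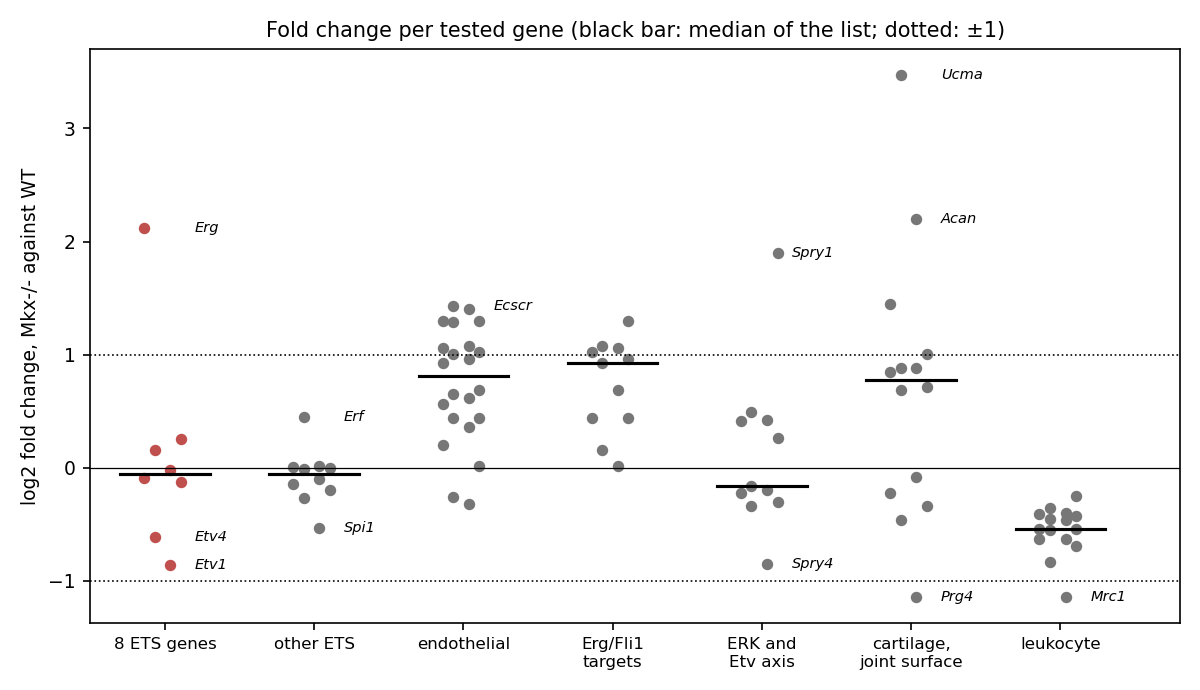
Log2 fold change (log2FC) of Mkx-/- against WT for each tested gene, grouped by list, with a bar at the median of each list and dotted lines at 1 and -1. Erg at 2.12 lies above all 22 endothelial genes, whose median is 0.81, and the other ETS genes lie between -0.86 for Etv1 and 0.45 for Erf.

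Of 12 genes listed as endothelial targets of Erg and Fli1, 11 were tested and all 11 were higher in *Mkx*-/- tendons, 9 of them at an unadjusted p under 0.05. Of all 14550 tested genes, 7208 were higher, and 12.5% were higher at an unadjusted p under 0.05. Of the listed targets, 0 were called upregulated by edgeR and 2 by DESeq2, where 1.89% and 2.37% of all genes were. The median log2FC of the listed targets was 0.93. All of them but *Klf2* also stand in the endothelial list, so the lists do not give separate views. *Klf2*, a flow-responsive factor, had a log2FC of 0.16 (standard error 0.15, edgeR adjusted p = 0.571).

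Levels of other cell type lists also differed between libraries, and their part in the level of *Erg* was not tested. Relative to the WT mean on the log2 scale, *Erg* was at 2.4, 2.15 and 1.69 in *Mkx*-/- replicates 1, 2 and 3. The endothelial list was at 0.30, 0.48 and 1.13 and the mural list, of pericyte and smooth muscle genes, at 0.32, 0.45 and 2.08. The Schwann cell list was at 0.33, 1.09 and 1.23. Those lists were thus highest in the library where *Erg* was lowest of its group. The skeletal muscle list was at 3.74, 2.76 and 1.83, in the same order as *Erg*, and 14 of its 16 genes had that order singly. In WT, the muscle list was at 1.02, -1.59 and 0.58 and *Erg* at -0.27, 0.04 and 0.23, so that *Erg* was lowest where the muscle list was highest. The summed level of the muscle list was 103 to 393 CPM in WT and 561 to 2750 CPM in *Mkx*-/- tendons. By edgeR, 5 of its 16 genes were called upregulated, where 1.89% of all tested genes were. The summed level of the endothelial list was 143 to 160 CPM in WT and 194 to 301 CPM in *Mkx*-/- tendons. That of the mural list was 348 to 414 CPM in WT, and 370 and 378 CPM in *Mkx*-/- replicates 1 and 2, inside the WT range, and 1110 CPM in replicate 3. That of the Schwann cell list was 8420 to 11100 CPM in WT and 13000 to 24100 CPM in *Mkx*-/- tendons, with 0 genes of either list called by edgeR and 1 gene of each by DESeq2. At an unadjusted p under 0.05, 4 of 10 mural genes and 9 of 9 Schwann cell genes were higher, where 12.5% of all tested genes were.

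**Figure D4:**
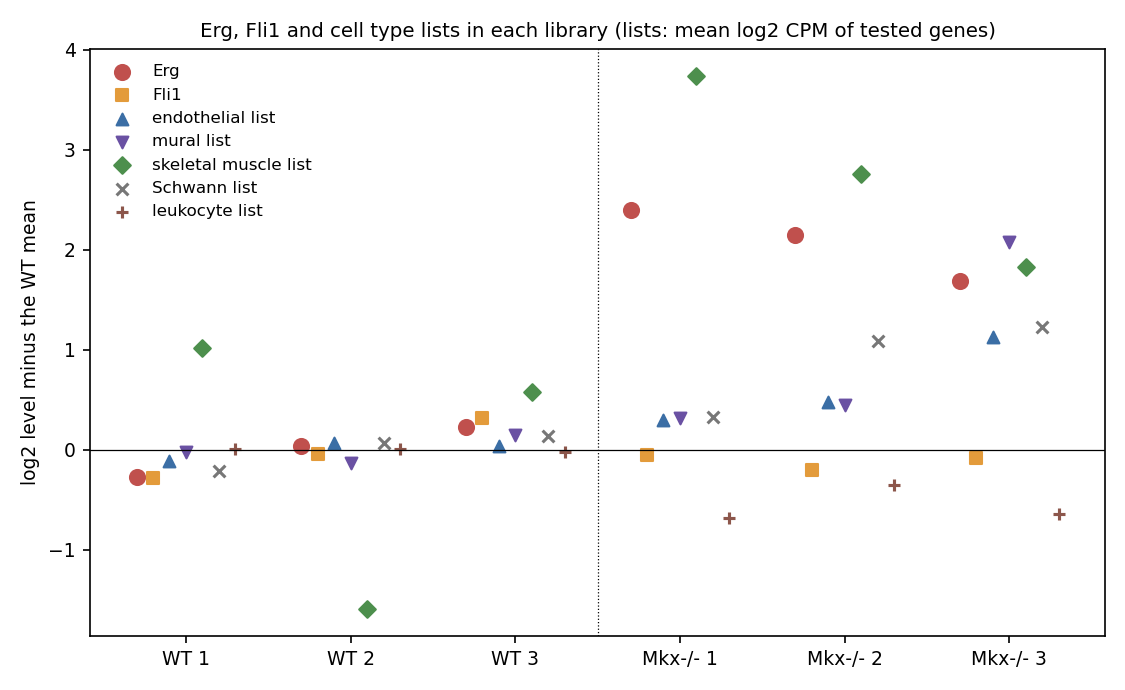
Log2 level of Erg, Fli1 and the mean of 5 cell type lists in each of the 6 libraries, relative to the WT mean. In Mkx-/- tendons Erg goes from 2.4 to 1.69 and the skeletal muscle list from 3.74 to 1.83, while the endothelial list goes from 0.30 to 1.13 and the mural list from 0.32 to 2.08.

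Leukocytes, which express Fli1, Ets1 and Spi1, were represented by 18 genes. All 15 tested genes of the list were lower in *Mkx*-/- tendons, 13 of them at an unadjusted p under 0.05, with a median log2FC of -0.54. Of all 14550 tested genes, 7342 were lower, 10.1% were lower at an unadjusted p under 0.05 and 1.33% were called downregulated. The macrophage receptor gene *Mrc1* was called downregulated, from 48.7 ± 10.3 to 22.0 ± 3.19 CPM (SD, n = 3 each, log2FC -1.14, edgeR adjusted p = 0.0135). It lost the call in 3 of 13 alternatives, among them the fit without *Mkx*-/- replicate 3 (edgeR adjusted p = 0.0536). *Csf1r*, the receptor of macrophage colony-stimulating factor, fell by less than the fold threshold, with a log2FC of -0.63 (edgeR adjusted p = 0.0173). The summed level of the list was 676 to 724 CPM in WT and 437 to 548 CPM in *Mkx*-/- tendons, and the T cell gene *Cd3e* was at 0 counts in all libraries. The part of the leukocyte genes in the levels of *Fli1*, *Ets1* and *Spi1* was not tested.

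The genes that usually accompany *Etv1*, *Etv4* and *Etv5* lay on both sides of their WT levels. Of 13 genes of the ERK and fibroblast growth factor axis, 11 were tested, with 5 higher and 6 lower and a median log2FC of -0.16. The sign of this median depended on the processing, with 0.1 with library size only and 0.04 without WT replicate 3. It was 0.25 in DESeq2 and 0.27 with a filter of 1 count. Those 2 fits also took in listed genes with too few counts to be among the 11, so their medians are of a larger set. *Spry1*, an inhibitor of receptor tyrosine kinase signalling, was called upregulated. It had 37.3, 30.7 and 30.7 CPM in WT and 129, 121 and 119 CPM in *Mkx*-/- tendons, a log2FC of 1.90 (standard error 0.13, edgeR adjusted p = 0.000431). Its relative *Spry4* had 7.48, 18.4 and 20.4 CPM in WT and 8.61, 6.11 and 10.9 CPM in *Mkx*-/- tendons, with overlapping groups (log2FC -0.85, edgeR adjusted p = 0.212). As in *Etv4*, WT replicate 1 lay among the *Mkx*-/- libraries. *Fgfr1*, a receptor of the pathway, and *Cic*, a repressor of the PEA3 genes that ERK relieves, missed the threshold, with a log2FC of 0.42 and 0.41 (adjusted p of 0.0875 and 0.0839 in edgeR).

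Cartilage, the other tissue known for *Erg*, was represented by 18 genes, of which 14 were tested and 9 were higher and 5 lower. By edgeR 3 were called upregulated and 1 downregulated, where 1.89% and 1.33% of all tested genes were. *Ucma*, a matrix protein gene of chondrocytes, rose from 6.57 ± 1.46 to 72.9 ± 6.8 CPM (SD, n = 3 each, log2FC 3.47, edgeR adjusted p = 0.000158). *Acan*, the main cartilage proteoglycan gene, rose from 32 ± 9.74 to 147 ± 33.4 CPM (log2FC 2.20, edgeR adjusted p = 0.0038), and *Matn3* from 33.2 ± 3.39 to 90.8 ± 12.8 CPM (log2FC 1.45, edgeR adjusted p = 0.00181). *Prg4*, the lubricin gene of joint surfaces, was called downregulated, with a log2FC of -1.14 (edgeR adjusted p = 0.0429), and lost the call in 7 of 13 alternatives. *Col2a1*, the main cartilage collagen gene, did not pass the test, at 748 ± 261 and 705 ± 220 CPM (SD, n = 3 each, edgeR adjusted p = 0.905). *Comp* and *Chad*, also abundant genes of the list, were higher but did not pass the test. Their log2FC values were 0.88 and 0.69 (adjusted p of 0.0598 and 0.16 in edgeR). The median of the list was 0.78 on the log2 scale, and 0.44 without *Mkx*-/- replicate 2. Relative to the WT mean, the list was at 0.59, 0.82 and 0.71 in the *Mkx*-/- libraries, where *Erg* was at 2.4, 2.15 and 1.69. Its part in the level of *Erg* was not tested.

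The chromosome around *Erg* was read from 1 Mb before to 1 Mb after the gene, which held 19 other symbols of the table, 12 of them tested. Of these 12, *Kcnj15* was called upregulated and 0 were called downregulated. *Kcnj15* encodes an inwardly rectifying potassium channel and lies on the plus strand from 95479165 to 95521867, so that its end and the end of *Erg* face each other 58.9 kb apart. It had 13, 16 and 18 counts in WT and 1053, 1515 and 858 counts in *Mkx*-/- libraries, a 67.2-fold difference (log2FC 6.07, standard error 0.25, edgeR adjusted p = 7.58e-05). *Kcnj15* was lowest in *Mkx*-/- replicate 3, as *Erg* was, but highest in replicate 2. For each count on *Kcnj15* there were 5.38 to 6.72 counts on *Erg* in WT and 0.349 to 0.458 in *Mkx*-/- libraries. The 11 other tested neighbours, *Ets2* among them, had log2FC values from -0.45 to 0.12. The lowest adjusted p of those outside the ETS members was 0.109 in edgeR.

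**Figure D5:**
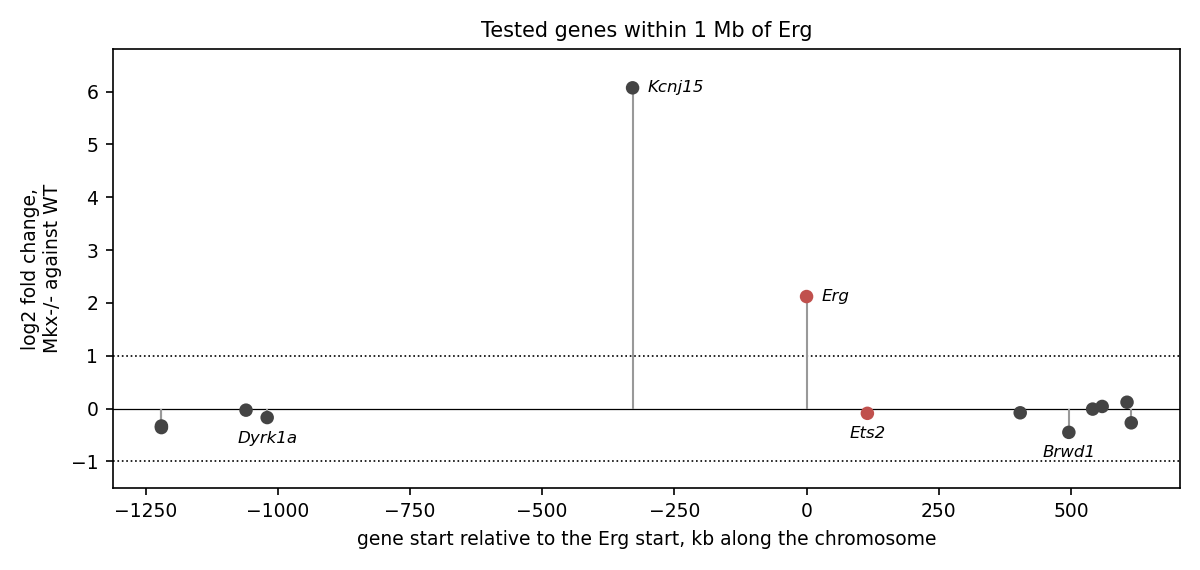
Log2 fold change (log2FC) of Mkx-/- against WT for the tested genes within 1 Mb of Erg, by the distance of their start from the start of Erg in kb along the chromosome, with dotted lines at 1 and -1. Kcnj15 at 6.07 and Erg at 2.12 are the genes outside the lines, and Ets2 on the other side of Erg is at -0.09.

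The genes whose levels followed *Erg* most closely were ranked by Pearson's r of log2 CPM over the 6 libraries, among the 10294 genes that averaged 5 CPM or more. The libraries share their genotypes, so any gene with a clear difference between genotypes scores high. The average was over all 6 libraries, so a gene below 5 CPM in WT could enter through its *Mkx*-/- level. *Penk* and *Kcnj15*, with WT means of 2.85 and 1.35 CPM, entered in this way, so nothing is read from their r over the 6 libraries. *Penk*, the enkephalin precursor gene (r = 0.997), *Thbs4*, a matrix thrombospondin gene (0.993), *Adam9* (0.992), *Hs6st1* (0.991), *Sybu* (0.991), *Bicc1* (0.990), *Il1rl2* (0.988) and *Cfb* (0.987) came first. *Penk* had 2.52, 2.75 and 3.28 CPM in WT and 22.6, 16.1 and 11.9 CPM in *Mkx*-/- tendons, with replicate 1 highest and replicate 3 lowest as in *Erg*. Among the other members r was 0.773 for *Elk3*, 0.209 for *Ets1*, -0.011 for *Etv5*, -0.155 for *Fli1*, -0.276 for *Ets2* and -0.572 for *Etv4*. *Kcnj15* had an r of 0.985, *Ecscr* of 0.93, *Cdh5* of 0.609 and *Pecam1* of 0.553. After the mean of each genotype was subtracted, *Kctd2* (r = 0.994), *Kif20a* (0.994), *Sh3rf1* (0.992) and *Gng8* (0.989) came first, followed by *Galnt4*, *Katna1*, *Gstz1* and *Trp63*. On that scale *Kcnj15* had an r of 0.837, *Ets2* of 0.637 and *Fli1* of 0.557 with *Erg*. *Etv4* had 0.335, *Etv5* 0.306, *Elk3* 0.153 and *Ets1* -0.474. *Pecam1* had -0.775, *Cdh5* -0.508 and *Ecscr* -0.494. With 6 libraries in 2 genotypes these values rest on few independent points.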

How the data were processed

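Total RNA of whole tail tendons from 3 WT and 3 *Mkx*-/- samples was sequenced on the Ion Proton system. The authors trimmed the reads, aligned them to mm9 with MapSplice and deposited the raw counts of each gene symbol, which are whole numbers and not normalized. The counting program, its annotation and its use of strand are not given in the sources used here, so reads of overlapping genes may be shared. All 6 columns were matched to samples by their names, and 0 columns were left unused.

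From the deposited counts, normalized CPM, log2 fold changes and p-values came from edgeR 4.0.16 (R 4.3.3), using TMM scaling, filterByExpr, a quasi-likelihood fit on genotype and Benjamini-Hochberg adjustment over 14550 genes. The biological coefficient of variation was 0.196. With 3 samples per group, an exact two-sided permutation test of a single gene cannot go below 0.1. RPKM used the exon lengths of the GENCODE annotation of mm9, and symbols with several records, such as *Spi1*, got none. Alternatives were DESeq2 1.42.0, RLE scaling, library size only, filters of 1 count in any and 10 counts in every library, a robust fit, a block for the replicate number, and leaving out each library. The steps were tested on simulated data.

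The members and the 12 gene lists were chosen with earlier results of these data known. The text names the 8 members, *Mkx*, the tested genes of the ETS family, at most the 5 most abundant tested genes of each list with its called genes, and the 8 genes most like *Erg* by each measure. *Pecam1*, *Cdh5*, *Spry4*, *Klf2*, *Cd3e*, *Kcnj15*, *Ddx3y* and *Xist* were named after their values were seen, and *Tnmd* was also named outside these rules. Depth limits *Etv1* most, at 25 to 80 counts per library.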

Additional observations from a re-analysis of the deposited data

How the results depend on the processing

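Of the 10 tested ETS genes outside the members, 0 were called under any of the 13 alternatives. The members were chosen on this contrast, so the calls on them are no sign of stability. Among all genes, 275 upregulated and 193 downregulated calls became 711 and 154 with library size only, 541 and 322 with a filter of 1 count, 209 and 158 with a filter of 10 counts, 385 and 275 with DESeq2, and ranged from 103 to 321 and from 112 to 248 with 1 library left out. The lowest counts came without WT replicate 3 (103 and 112), and those without WT replicate 2 (119 and 113), *Mkx*-/- replicate 2 (155 upregulated) and *Mkx*-/- replicate 3 (177 and 121) were also lower by over 1.5 times. The upregulated endothelial genes numbered 4 with DESeq2, 5 with library size only, 6 with the filter of 1 count, 2 with the filter of 10 counts and 1 to 2 with 1 library left out, with 2 without *Mkx*-/- replicate 1. In the ERK list, 0 to 1 genes were called downregulated with 1 library left out, with 1 without WT replicate 1. In the cartilage list, library size only gave 6 upregulated genes and 0 downregulated genes, and the downregulated count, which is *Prg4*, was 0 to 1 with 1 library left out. It was 0 without each WT replicate in turn and without *Mkx*-/- replicates 1 and 3. The downregulated leukocyte gene *Mrc1* lost its call with library size only (0 genes), and the count was 0 to 1 with 1 library left out, with 0 without *Mkx*-/- replicate 3. The cause of these changes was not tested.

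Library size only moved the log2 fold change of *Ets1* to 0.43 and of *Elk3* to 0.51, beside the sign changes of *Fli1*, *Ets2* and *Etv5*. *Ets1* also went to -0.05, *Fli1* to 0.03 and *Etv5* to 0.07 at the far ends of the ranges with 1 library left out. Deviations from the group means had correlations of 0.0261, -0.21 and 0.297 between samples with the same replicate number. Between samples with different numbers the correlations ran from -0.392 to 0.398. These values show no pairing by replicate number, and with 3 samples per group they cannot exclude one. With the replicate block, 195 genes were called upregulated and 136 downregulated, the log2 fold change of *Erg* was 2.1, and 0 cartilage and 0 leukocyte genes were called downregulated. Low counts limit what can be said of *Etv1*, whose log2 fold change lay between -1.05 and -0.60 over the alternatives.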

Other observations

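Serum response factor, genes of its cofactors and the immediate early genes that it controls with the ternary complex factors were also listed. Elk3 is one of the ternary complex factors. All 11 listed genes were tested, and 4 had higher and 7 had lower levels in *Mkx*-/- tendons (median log2 fold change -0.25). *Fosb* fell from 116 ± 16.3 to 45.0 ± 4.86 CPM (SD, n = 3 each, log2 fold change -1.36, edgeR adjusted p = 0.0025). *Fos* fell from 87.2 ± 49.5 to 23.2 ± 5.50 CPM (SD, n = 3 each, log2 fold change -1.91, edgeR adjusted p = 0.0404), and lost its call in 6 of 13 alternatives. These are the 2 downregulated genes of the list in edgeR, and DESeq2 called 3. *Srf* itself was at 28.6 ± 5.40 and 31.6 ± 3.60 CPM (SD, n = 3 each, edgeR adjusted p = 0.664). *Elk1* and *Elk4*, the other ternary complex factors, differed by 0.02 and 0.01 on the log2 scale (adjusted p of 0.958 and 0.995 in edgeR).

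Of 12 tendon genes, *Thbs4* and *Bgn* were called upregulated and *Mkx* downregulated by edgeR, while DESeq2 called 2 upregulated and 4 downregulated. By log2 fold change, 4 of the 12 were higher and 8 were lower, with a median of -0.22. The abundant collagen genes *Col1a2* and *Col1a1* were lower, with log2 fold changes of -1.02 and -0.68 (adjusted p of 0.0933 and 0.287 in edgeR). *Bgn*, which encodes the matrix proteoglycan biglycan, rose from 1080 ± 164 to 4770 ± 408 CPM (SD, n = 3 each, log2 fold change 2.14, edgeR adjusted p = 0.00115). *Thbs4* rose from 4640 ± 651 to 11100 ± 1150 CPM (SD, n = 3 each, log2 fold change 1.26, edgeR adjusted p = 0.0118).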
